A study of Saccharomyces cerevisiae with 17 samples.

Results

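Between day 5 and day 14 of a wine fermentation, early and late in stationary phase, the commercial Saccharomyces cerevisiae strains VIN13 and BM45 did not change their transcript levels alike, and the question was for which genes the change differed. For each gene the difference of differences was taken on the log2(intensity + 16) scale, the change from day 5 to day 14 in VIN13 minus the same change in BM45, and is called the interaction here. Above 0 it means a higher ratio of day 14 to day 5 in VIN13, and below 0 a lower one. It rests on 12 of the 17 arrays, 3 each of VIN13 at day 14, VIN13 at day 5, BM45 at day 14 and BM45 at day 5. The 5 arrays of day 2 entered only the estimate of the spread. Both strains are industrial wine yeasts grown under micro-aerobic conditions in must of the white grape Colombar, and the labels give no mutation, drug or other treatment. The genes tested numbered 5449, and all of them were members of the comparison.

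Yeast in must ferments sugar to ethanol and stops dividing when a nutrient, often assimilable nitrogen, runs out, while fermentation goes on. Cells in stationary phase repress ribosome production, hold reserves of trehalose and glycogen, and shift nitrogen uptake from preferred sources to poorer ones through permeases under nitrogen catabolite repression. Sterol synthesis needs molecular oxygen, which is scarce in fermenting must, and ethanol and acidity load the chaperones. Commercial strains are known to differ in how they use nitrogen and in the aroma compounds they form late in fermentation.

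The median S. cerevisiae gene read between 918.0 and 986.8 on the arrays of VIN13 at day 14, between 907.3 and 974.2 at day 5, between 866.6 and 889.6 in BM45 at day 14 and between 986.5 and 1023.1 at day 5. The species on the label was borne out by the 1746 probe sets for Schizosaccharomyces pombe on the same arrays, whose median log2 value lay between 4.47 and 4.65 in these groups against 9.79 to 10.02 for S. cerevisiae genes. Their 95th percentile, an intensity of 100.7, served as the background bound. Nothing in the labels says that the 3 samples of a group were separate cultures, so p-values measure the spread between these samples, and the number of arrays limits the precision of every value. In RNA of whole cultures, fewer cells of a kind and less RNA per cell cannot be told apart. The VIN13 arrays numbered 3 lay farther from their group means than the other arrays of days 5 and 14, with a root mean square deviation of 0.20 on the log2 scale at day 14 and 0.22 at day 5, against 0.084 to 0.17 for the others. Day 2 arrays, which share in the spread estimate, had 0.17 to 0.30. Ratios of 3' to 5' signal of the ACT1 control, a measure of RNA integrity and of labelling, ran from 1.63 to 2.37 in VIN13 at day 14, 1.65 to 2.86 in VIN13 at day 5, 1.40 to 1.45 in BM45 at day 14 and 1.43 to 1.61 in BM45 at day 5. For the WBP1 control they were 3.91 to 5.22, 3.12 to 4.85, 4.74 to 6.17 and 2.40 to 2.74 in the same groups. The SPT15 control moved the other way in BM45, with 1.72 to 1.79 at day 14 and 2.34 to 2.47 at day 5. In VIN13 SPT15 had 1.96 to 2.28 at day 14 and 2.40 to 2.71 at day 5. RIP1 ratios overlapped between the days in both strains, with 1.18 to 1.29 and 1.15 to 1.31 in BM45. For TDH1 the highest ratio in these groups was 1.09, in VIN13 at day 14. The part of these ratios in the results was not tested beyond a fit with the ACT1 ratio as covariate. Under it all 1861 calls were still made with the same sign and 2472 were made in all. The ACT1 ratio changed little between the days in BM45, so this fit cannot take up a shift like that of WBP1 or SPT15 there.

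The interaction was called, at a Benjamini-Hochberg adjusted p under 0.05, for 1861 genes or 34.2% of those tested. The ratio was higher in VIN13 for 1298 genes, 23.8% of all, and lower in VIN13 for 563, 10.3%. At least 2-fold differences were called for 427 genes, 265 higher and 162 lower. Within the strains, 2371 genes were called as changed in VIN13, 1034 up and 1337 down, and 3655 in BM45, 1304 up and 2351 down. BM45 had the larger change, without regard to sign, for 1621 of the 1861 called genes, which is 87.1%, and for 3882 of all 5449, 71.2%. Changes of at least 2-fold, called or not, were seen for 293 genes in VIN13 and 1215 in BM45. Across genes, which are not independent replicates, the changes of the strains ran together with a Pearson r of 0.72 over 5449 genes, and their SD was 0.52 in VIN13 and 0.81 in BM45.

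**Figure D1:**
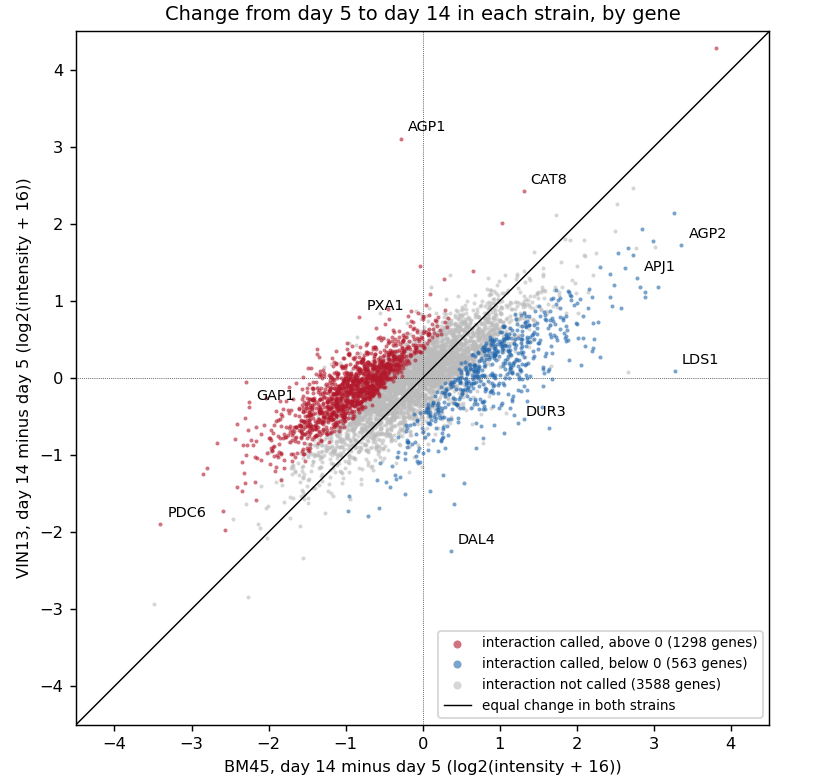
Each point is 1 of 5449 genes, with the day 14 minus day 5 change on the log2(intensity + 16) scale in VIN13 on the y axis and in BM45 on the x axis. Red points are the 1298 genes with a called interaction above 0, blue points the 563 below 0, and the black line marks an equal change in both strains. The cloud is wider along the BM45 axis, and AGP1, LDS1 and DAL4 lie farthest from the line among the labelled genes.

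The split between directions depended on how the arrays were put on one scale. The median gene had an interaction of 0.15 with the values as deposited, -0.04 with each array centred on its median gene and 0.04 after quantile normalization. Centring left 1873 calls, 855 higher and 1018 lower in VIN13, and quantile normalization 1663, 885 higher and 778 lower, so that the share of calls that were higher was 69.7%, 45.6% and 53.2% in these settings. Of the 1861 calls 1418 kept sign and call under centring and 1365 after quantile normalization. Of the 41 gene lists 32 had a count that moved by over 1.5 times when 1 array was left out, and these counts are given with each list described. Medians of gene groups are therefore to be read beside the 0.15 of the median gene. Counts of a list under centring are to be read beside the 855 higher and 1018 lower of all 5449 genes. Those after quantile normalization belong beside the 885 and 778 of the same genes. The shares printed with each list are for the values as deposited and are no background for these counts. Within-strain counts of any list belong beside all 5449 genes, of which 1034 rose and 1337 fell in VIN13. In BM45, 1304 of all genes rose and 2351 fell. The median gene changed by -0.03 in VIN13 and -0.19 in BM45.

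For the values as deposited, the most frequent pattern was a fall in BM45 with no called change in VIN13. It held 735 of the 1861 genes or 39.5%. On that scale the median gene changed by -0.19 in BM45 and -0.03 in VIN13. The classes and the counts by day were not taken under centring or quantile normalization, where 855 and 885 genes in all were called higher. A fall in both strains, smaller in VIN13, held 404, and 10 genes fell in both with the larger fall in VIN13. A rise in BM45 with no called change in VIN13 held 250, and a rise in both, smaller in VIN13, 191, while 9 genes rose more in VIN13. VIN13 alone was called for 92 genes that rose and 89 that fell. Opposite called directions were found for 66 genes, of which 49 rose in VIN13 and fell in BM45 and 17 fell in VIN13 and rose in BM45. Neither change was called for 9 genes with a higher and 6 with a lower ratio in VIN13. Seen by day, 867 genes had no called strain difference at day 5 and were higher in VIN13 at day 14, and 351 had none at day 5 and were lower in VIN13 at day 14. At day 14 no strain difference was called for 182 genes that were lower and 91 that were higher in VIN13 at day 5. The order of the strains had turned for 112 genes, higher in VIN13 at day 14 and lower at day 5, and for 35 the other way.

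**Figure D2:**
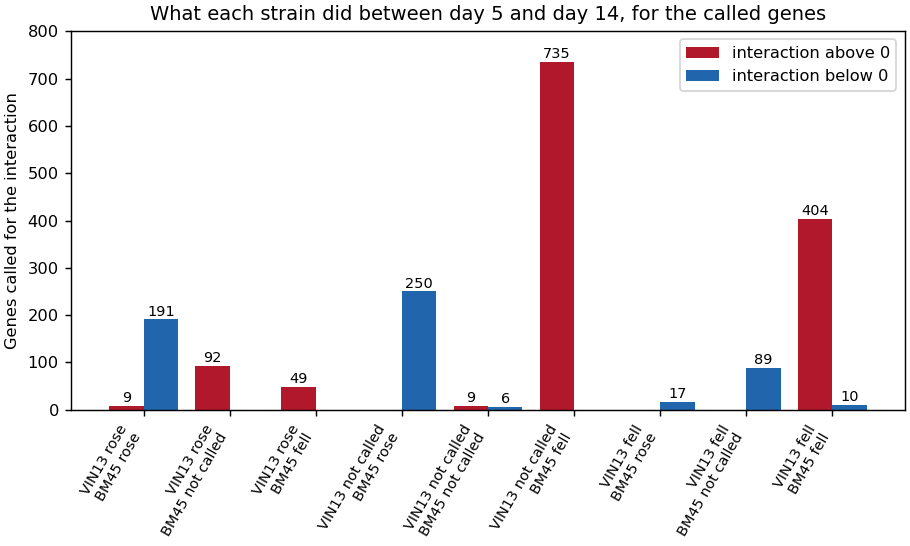
Bars count the 1861 genes with a called interaction by the called change from day 5 to day 14 in VIN13 and in BM45, red for interactions above 0 and blue below 0. All counts are for the values as deposited. The tallest bar is the 735 genes that fell in BM45 and were not called in VIN13, and the 66 genes with opposite directions are in the bars of 49 and 17.

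Calls were not spread evenly over gene length. Among 1089 genes with the longest coding sequence, from 2109 to 14733 bases, 37.9% were called higher and 4.3% lower in VIN13, and among 1097 with the shortest, up to 660 bases, 17.4% and 13%. The median change of the longest genes was 0.05 in VIN13 and -0.32 in BM45, and of the shortest -0.01 in VIN13 and -0.07 in BM45. For each gene list described below, the share called among all genes with the same make-up by length class is therefore given, for the values as deposited. The part of length in the calls was not tested.

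Nitrogen uptake genes gave some of the largest single differences, and they went both ways. AGP1, a broad amino acid permease, had the highest interaction of all genes, and GAP1, the general amino acid permease, was among the highest. DAL4 and DUR3, the permeases of allantoin and urea, and ALP1, a permease of basic amino acids, were among the lowest. AGP1 read 6977, 4565 and 6964 in VIN13 at day 14 and 1016, 924 and 345 in VIN13 at day 5, and 4978, 5354 and 5696 in BM45 at day 14 and 6004, 7124 and 6365 in BM45 at day 5. The VIN13 arrays of day 5 lay below all others, the lowest being the one numbered 3, and in BM45 the arrays of day 14 lay below those of day 5. AGP1 rose by 3.11 ± 0.45 on the log2 scale in VIN13 (± standard error of the fitted contrast, as in all values below), and in BM45 the change of -0.28 ± 0.45 was not called. Its interaction was 3.39 ± 0.64 (adjusted p = 0.00131), and 2.90 without the lowest array.

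GAP1 read 6003, 4649 and 5646 in VIN13 at day 14 and 6960, 7258 and 6790 in VIN13 at day 5, and 767, 727 and 627 in BM45 at day 14 and 3358, 3802 and 3129 in BM45 at day 5. It fell by 0.37 in VIN13 and fell by 2.25 in BM45, and the BM45 arrays of day 14 lay far below all others. The interaction was 1.88 ± 0.16 (adjusted p = 7.28e-06), and the strain difference of 1.03 ± 0.11 at day 5 had opened to 2.91 ± 0.11 at day 14. DUR3 had opposite courses: it read 1074, 1149 and 997 in VIN13 at day 14 and 1458, 1833 and 1589 in VIN13 at day 5, and 1457, 1449 and 1626 in BM45 at day 14 and 648, 586 and 655 in BM45 at day 5. No array overlapped between the days in either strain, and the order of the strains turned, with VIN13 higher at day 5 and lower at day 14. DUR3 fell by 0.59 in VIN13 and rose by 1.24 in BM45, an interaction of -1.83 ± 0.14 (adjusted p = 4.49e-06).

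DAL4 was read above background in a single group, VIN13 at day 5. Its intensities were 90.2, 61.2 and 70.2 in VIN13 at day 14 and 298, 576 and 392 in VIN13 at day 5, and 60.4, 33 and 43.1 in BM45 at day 14 and 31.6, 31.6 and 29.8 in BM45 at day 5. The fall of -2.25 ± 0.23 in VIN13 was at least 3.63-fold with day 14 set at the background bound, and both BM45 groups lay below the bound, so the size of the interaction, -2.61 ± 0.32, depends on the constant added before the logarithm. DAL5, the allantoate permease, was bright in both strains and read 1572, 1399 and 1256 in VIN13 at day 14 and 3364, 4120 and 4632 in VIN13 at day 5, and 572, 493 and 503 in BM45 at day 14 and 667, 607 and 568 in BM45 at day 5. It fell by 1.5 in VIN13, with no overlap between the days, and was not called in BM45, where the arrays overlapped (-0.23). DAL7, the malate synthase of allantoin breakdown, went the same way, with changes of -1.31 in VIN13, called, and -0.35 in BM45, not called. DAL5 and DAL7 were higher in VIN13 than in BM45 on every array of both days, and their strain differences were smaller at day 14, for DAL5 1.40 against 2.68 at day 5.

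Of the 34 measured genes under nitrogen catabolite repression 6 had a higher and 5 a lower ratio in VIN13, 32.4% in all, close to the 34.2% of all genes, with a median interaction of -0.02. Nitrogen-repressed genes were called higher in 17.6% and lower in 14.7%, against 25.1% and 10.4% of all genes with the same lengths. For these genes centring gave 4 higher and 11 lower, and quantile normalization 6 and 6. These genes had 4 to 7 higher and 4 to 8 lower with 1 array left out, a move of over 1.5 times without VIN13 day 5 replicate 3, and 8 higher and 8 lower without both VIN13 arrays numbered 3. In VIN13 0 of them rose and 19 fell, and in BM45 5 rose and 17 fell. Of all 5449 genes, 1034 rose and 1337 fell in VIN13, and 1304 rose and 2351 fell in BM45. Among 25 amino acid permeases 5 were higher and 5 lower, 40% in all, with a median of -0.22. Permease genes were called higher in 20% and lower in 20%, against 28.7% and 9.8% of all genes with the same lengths. For the permeases centring gave 4 higher and 7 lower, and quantile normalization 4 and 8. The permeases had 3 to 5 higher and 3 to 6 lower with 1 array left out, a move of over 1.5 times without VIN13 day 5 replicate 1 or BM45 day 14 replicate 2. ALP1 read 44.4, 44.1 and 44.4 in VIN13 at day 14 and 130.2, 132 and 156 in VIN13 at day 5, and 58.4, 92.8 and 70.7 in BM45 at day 14 and 40.4, 41.7 and 55.4 in BM45 at day 5, above the bound of 100.7 only in VIN13 at day 5. It fell at least 1.33-fold in VIN13, no change can be read in BM45, and its interaction of -1.89 ± 0.29 (adjusted p = 0.000364) again depends on the added constant. AGP2, a membrane protein of carnitine and polyamine uptake, rose in both strains. Its arrays read 310.5, 245 and 300.5 in VIN13 at day 14 and 65.9, 102 and 61.6 in VIN13 at day 5, and 974, 935 and 917 in BM45 at day 14 and 77, 59.2 and 100.5 in BM45 at day 5, a rise of at least 2.56-fold in VIN13 and at least 8.21-fold in BM45 over the background bound. The interaction of AGP2 was -1.63 ± 0.39 (adjusted p = 0.00556).

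**Figure D3:**
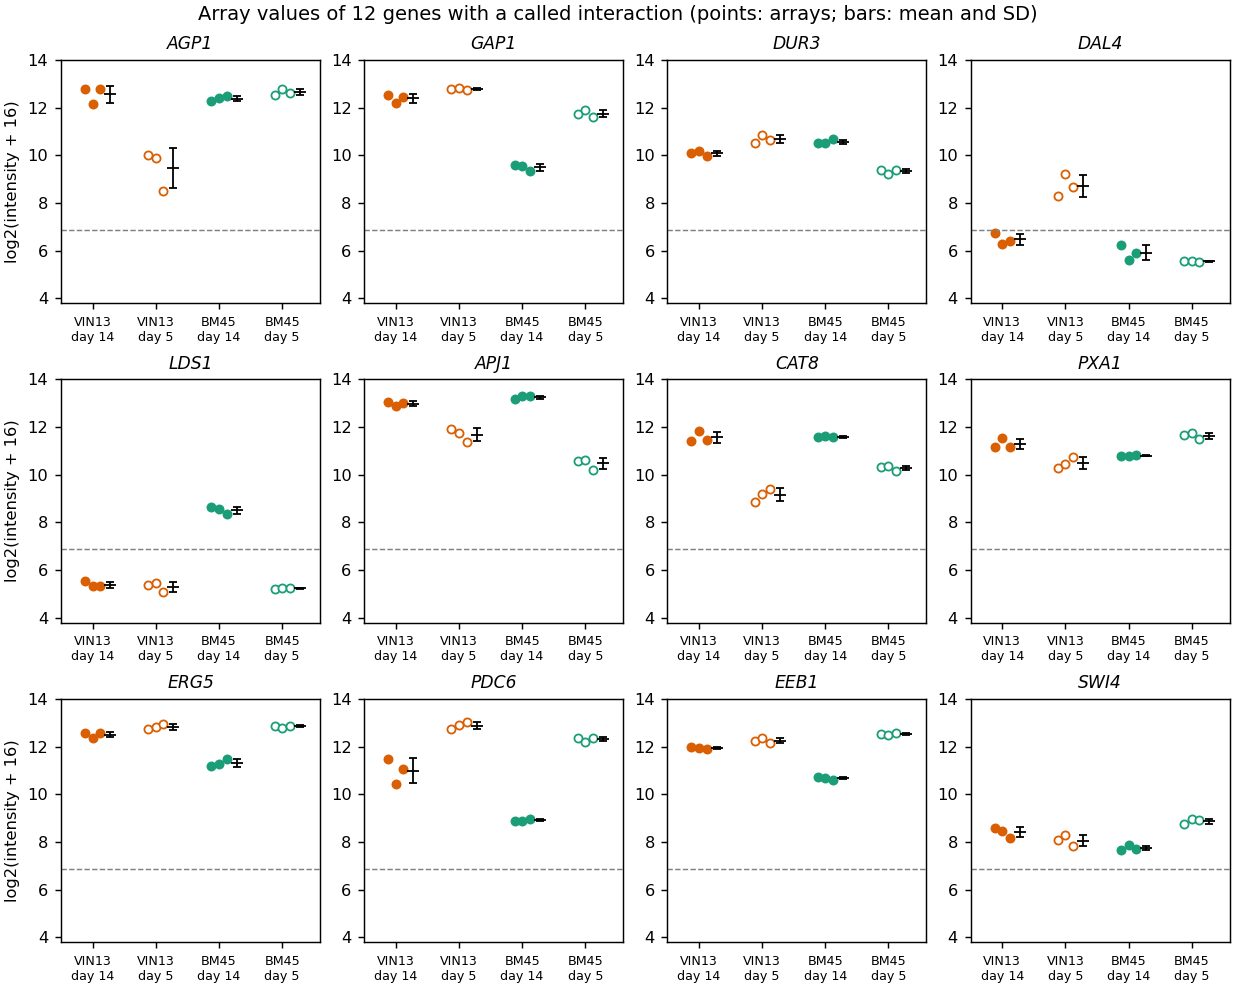
Points are the 3 arrays of each group, filled for day 14 and open for day 5, orange for VIN13 and green for BM45, on the log2(intensity + 16) scale, with the mean and SD beside them and the background bound as a dashed line at 6.87. AGP1 is low only in VIN13 at day 5, GAP1, ERG5, EEB1 and PDC6 are lowest in BM45 at day 14, LDS1 stands above the bound only in BM45 at day 14, and DUR3 and PXA1 change in opposite directions in the strains.

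Ergosterol biosynthesis was the list with the highest share of calls. Of its 24 measured genes 17 had a higher ratio in VIN13 and 0 a lower one, 70.8% called against 34.2% of all genes, and the median interaction was 0.68, 0.53 above that of all genes. In VIN13 16 of the 24 fell and 0 rose, with a median change of -0.40, and in BM45 23 fell and 0 rose, with a median of -1.28. Ergosterol genes were called higher in 70.8% and lower in 0%, against 23.1% and 10.8% of all genes with the same lengths. For ergosterol synthesis centring gave 14 higher and 0 lower, and quantile normalization 15 and 0. At day 5 the median strain difference of the list was 0.05, and at day 14 it was 0.91, higher in VIN13.

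ERG5, the sterol C-22 desaturase, read 6088, 5247 and 6055 in VIN13 at day 14 and 6716, 7151 and 7787 in VIN13 at day 5, and 2288, 2422 and 2872 in BM45 at day 14 and 7378, 7107 and 7510 in BM45 at day 5. The strains overlapped at day 5, and at day 14 every BM45 array lay below every VIN13 array. Its interaction was 1.22 ± 0.14 (adjusted p = 8.87e-05), with a fall of 0.32 in VIN13 and of 1.54 in BM45. ERG2, the C-8 sterol isomerase, read 5949, 4268 and 5225 in VIN13 at day 14 and 5636, 6426 and 6389 in VIN13 at day 5, and 2686, 2417 and 2800 in BM45 at day 14 and 7386, 6714 and 7717 in BM45 at day 5, and its fall was called in BM45 (-1.46) but not in VIN13 (-0.27, with overlapping arrays). ERG20, the farnesyl diphosphate synthase of the mevalonate branch, fell by 1.42 in VIN13 and fell by 2.41 in BM45. Its day 14 arrays read 3363, 1897 and 2830 in VIN13 and 1341, 1142 and 1147 in BM45. ERG26, a C-3 sterol dehydrogenase, fell by 0.38 in VIN13 and fell by 1.44 in BM45.

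The called steps covered both branches of the pathway. In the mevalonate branch, ERG10, ERG13, HMG2, ERG12, IDI1, ERG20 and ERG9 were called, with interactions from 0.71 for ERG13 to 0.99 for ERG20. HMG2, an isoenzyme of the rate-limiting HMG-CoA reductase, read 4302, 3795 and 3995 in VIN13 at day 14 and 3592, 3727 and 3790 in VIN13 at day 5, and 3251, 3060 and 3386 in BM45 at day 14 and 5313, 5119 and 4884 in BM45 at day 5, and fell in BM45 alone among the called changes (-0.66, against 0.12 in VIN13). Its isoenzyme HMG1 was the single gene of the 24 not called as fallen in BM45, with -0.01 there and -0.26 in VIN13, and an interaction of -0.25 that was not called. From squalene onward, ERG1, ERG11, ERG24, ERG25, ERG26, ERG27, ERG28, ERG2, ERG3 and ERG5 were called, from 0.40 for ERG25 to 1.22 for ERG5. The 7 genes with no call were HMG1, ERG8, MVD1, ERG7, ERG6, ERG4 and NCP1, and for HMG1 and ERG4 the fitted change was lower in VIN13 than in BM45. These were named after their values were seen, to account for the whole list.

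**Figure D4:**
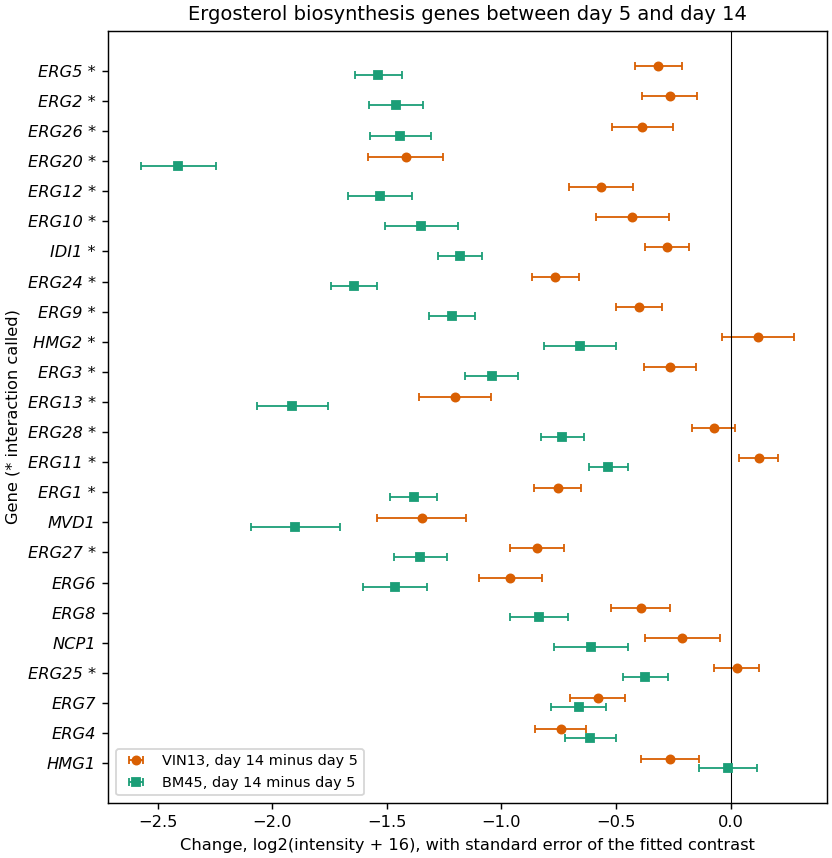
Points give the day 14 minus day 5 change of the 24 ergosterol biosynthesis genes on the log2(intensity + 16) scale, VIN13 as orange circles and BM45 as green squares, with bars for the standard error of the fitted contrast and a star for a called interaction. The BM45 point lies left of the VIN13 point for all of the 24 genes but ERG4 and HMG1.

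CYB5, cytochrome b5, which passes electrons to sterol and lipid desaturases, was among the 15 highest interactions of all genes. It read 5968, 3611 and 4830 in VIN13 at day 14 and 5950, 6939 and 7404 in VIN13 at day 5, and 1311, 1228 and 1538 in BM45 at day 14 and 6704, 5796 and 7867 in BM45 at day 5, an interaction of 1.79 ± 0.24 (adjusted p = 0.000177). In VIN13 its arrays overlapped between the days, and in BM45 they did not. YPT6, a small GTPase of Golgi traffic, read 467, 405 and 442 in VIN13 at day 14 and 710.3, 758 and 944 in VIN13 at day 5, and 128, 126 and 86.2 in BM45 at day 14 and 765, 853 and 774 in BM45 at day 5. The strains overlapped at day 5 and stood well apart at day 14, and the interaction was 1.82 ± 0.24 (adjusted p = 0.000138). ETR1, a mitochondrial reductase of fatty acid synthesis, fell by 1.17 in VIN13 and fell by 2.80 in BM45, an interaction of 1.62.

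Genes of the secretory pathway, which folds proteins in the endoplasmic reticulum and carries them in vesicles to the Golgi and the cell surface, were called with a higher ratio in VIN13 beyond the share of all genes. Of 65 measured genes 25 had a higher ratio in VIN13 and 2 a lower one, 41.5% against 34.2% of all genes, with a median of 0.31. Median changes were -0.17 in VIN13, where 23 fell and 9 rose, and -0.58 in BM45, where 40 fell and 11 rose. Secretory genes were called higher in 38.5% and lower in 3.1%, against 24.7% and 9.9% of all genes with the same lengths. For the secretory pathway centring gave 16 higher and 10 lower, and quantile normalization 18 and 4. The secretory pathway had 17 to 30 higher and 0 to 3 lower with 1 array left out, a move of over 1.5 times without VIN13 day 14 replicate 4, VIN13 day 5 replicates 1, 2 and 3, BM45 day 14 replicates 1, 2 and 3 or BM45 day 5 replicates 1, 2 and 3. ERP3, a p24 protein of transport vesicles, read 993, 1195 and 973 in VIN13 at day 14 and 872, 943 and 1337 in VIN13 at day 5, and 541, 494 and 508 in BM45 at day 14 and 1471, 1197 and 1324 in BM45 at day 5. All BM45 arrays of day 14 lay below all other arrays, and the interaction was 1.36 ± 0.21 (adjusted p = 0.000412).

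SEC8 and SEC15, subunits of the exocyst that tethers vesicles at the plasma membrane, and SEC11, the signal peptidase, were the other named members. SEC8 rose in VIN13 by 0.33 and fell in BM45 by 0.67, and its arrays read 1352, 1262 and 1361 in VIN13 at day 14 and 919, 1087 and 1163 in VIN13 at day 5, and 907, 836 and 930.5 in BM45 at day 14 and 1409, 1497 and 1381 in BM45 at day 5. SEC15 had -0.23 in VIN13, not called, and fell by 1.29 in BM45. SEC11 fell by 0.63 in VIN13 and fell by 1.65 in BM45, with an interaction of 1.01. ERV1, a mitochondrial protein that stands in the list, was also called (0.51). BET1 and RET2, a SNARE protein and a coatomer subunit, were the 2 called lower, and ERV1, BET1 and RET2 were named after their values were seen.

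Genes of DNA replication and histones had the second highest share of calls, 56.5% of 46, with 19 higher and 7 lower in VIN13 and a median of 0.41. In VIN13 6 rose and 12 fell, and in BM45 9 rose and 27 fell. Replication and histone genes were called higher in 41.3% and lower in 15.2%, against 26% and 9.5% of all genes with the same lengths. For replication and histones centring gave 10 higher and 8 lower, and quantile normalization 9 and 7. Replication and histones had 12 to 20 higher and 5 to 7 lower with 1 array left out, a move of over 1.5 times without VIN13 day 5 replicate 1. ORC5, a subunit of the origin recognition complex, read 460, 357 and 462 in VIN13 at day 14 and 346, 413 and 497 in VIN13 at day 5, and 227, 198 and 274 in BM45 at day 14 and 598, 500.3 and 559 in BM45 at day 5, an interaction of 1.23 ± 0.23 (adjusted p = 0.00119). CDC45, a helicase factor of replication forks, had -0.03 in VIN13 and -1.21 in BM45, and RFC1, the large subunit of the clamp loader, -0.47 in VIN13 and -1.47 in BM45. The changes of ORC5 and CDC45 in VIN13 were not called, and the falls of all 3 in BM45 were. POL2, a replicative DNA polymerase, had a lower ratio in VIN13. Its interaction lay between -0.95 and -0.55 over 27 alternative settings, and its call was lost under 10 of them.

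HHO1, the linker histone H1, also had a lower ratio in VIN13. Its arrays read 1056, 711 and 805 in VIN13 at day 14 and 704, 803 and 648 in VIN13 at day 5, and 1966, 1859 and 2016 in BM45 at day 14 and 775, 844 and 855 in BM45 at day 5, and BM45 at day 14 lay above every other array. The rise of 1.22 was called in BM45, and the change of 0.24 in VIN13 was not. Among core histone genes HTA1, HTA2, HTB1 and HHT1 were called higher in VIN13, from 0.50 for HTB1 to 0.88 for HTA1, and these near-identical copies are open to cross-hybridisation and were named after their values were seen. Cyclins and mitotic genes had 5 of 25 higher and 3 lower, 32% against 34.2% of all genes. Cyclin and mitotic genes were called higher in 20% and lower in 12%, against 28.5% and 8.6% of all genes with the same lengths. For cyclins and mitosis centring gave 4 higher and 6 lower, and quantile normalization 4 and 7. MBP1 and SWI4, the DNA-binding subunits of the G1 to S transcription factors, were 2 of the 5. MBP1 read 628, 602 and 634 in VIN13 at day 14 and 748, 902 and 842 in VIN13 at day 5, and 277, 321 and 245 in BM45 at day 14 and 839, 964 and 852 in BM45 at day 5, and its interaction was 1.20 ± 0.16 (adjusted p = 0.000192). SWI4 had an interaction of 1.47 ± 0.41 (adjusted p = 0.0136), which was not called without both VIN13 arrays numbered 3 (1.33, adjusted p = 0.0527). ESP1, the separase that opens cohesin at anaphase, rose by 0.53 in VIN13 and fell by 0.55 in BM45.

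Among chaperones the ratio was lower in VIN13 for 8 of 34 and higher for 2, 29.4% called against 34.2% of all genes, with a median of -0.27. In VIN13 14 of them rose and 4 fell, and in BM45 21 rose and 6 fell. Their median change was 0.28 in VIN13 and 0.47 in BM45. Over all 5449 genes, 1034 rose and 1337 fell in VIN13, and 1304 rose and 2351 fell in BM45. Chaperone genes were called higher in 5.9% and lower in 23.5%, against 25.5% and 10.1% of all genes with the same lengths. For the chaperones centring gave 2 higher and 16 lower, and quantile normalization 3 and 9. The chaperones had 2 to 4 higher and 6 to 8 lower with 1 array left out, a move of over 1.5 times without VIN13 day 14 replicates 3 and 4, and 4 higher and 8 lower without both VIN13 arrays numbered 3, and 4 higher and 9 lower with a pseudocount of 64. At day 5 the list was higher in VIN13 by a median of 0.22, and at day 14 by 0.01. APJ1, a J-domain partner of Hsp70, read 8601, 7511 and 8171 in VIN13 at day 14 and 3903, 3458 and 2629 in VIN13 at day 5, and 9329, 9975 and 10080 in BM45 at day 14 and 1512, 1576 and 1171 in BM45 at day 5. It rose by 1.29 in VIN13 and by 2.78 in BM45, which started lower, and the interaction was -1.49 ± 0.28 (adjusted p = 0.00121). FES1, a nucleotide exchange factor of Hsp70, read 9731, 11100 and 10280 in VIN13 at day 14 and 6357, 6542 and 6611 in VIN13 at day 5, and 9645, 9661 and 9187 in BM45 at day 14 and 3006, 2778 and 2101 in BM45 at day 5. Every VIN13 array lay above every BM45 array of the same day, and the strain difference was 0.12 there and 1.32 at day 5.

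YDJ1, the main cytosolic J protein, and SSE1, an Hsp110 exchange factor, followed the same course. YDJ1 read 10600, 10810 and 9632 in VIN13 at day 14 and 6004, 6090 and 5912 in VIN13 at day 5, and 11280, 10980 and 11110 in BM45 at day 14 and 3582, 3576 and 3283 in BM45 at day 5, and SSE1 rose by 0.46 in VIN13 and 1.28 in BM45. The 2 members with a higher ratio in VIN13 were HSP104, the disaggregase, and SSA4, a stress-inducible Hsp70, each with a called fall in BM45 (-0.67 and -0.79) and a change near 0 in VIN13 (-0.01 and 0.00). They were named after their values were seen.

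Spore and meiosis genes gave the most negative interaction of all. LDS1, needed for spore wall assembly, read 30.1, 23.8 and 24 in VIN13 at day 14 and 26, 27.6 and 17.6 in VIN13 at day 5, and 384, 358 and 309 in BM45 at day 14 and 20.9, 21.8 and 22.5 in BM45 at day 5. It stood above the background bound in BM45 at day 14 only, a rise of at least 3.12-fold there, with an interaction of -3.19 ± 0.28 (adjusted p = 7.79e-06). Of 48 measured meiosis and spore genes 5 were higher and 9 lower in VIN13, 29.2% against 34.2% of all genes, with a median of -0.11. Meiosis and spore genes were called higher in 10.4% and lower in 18.8%, against 23.2% and 10.7% of all genes with the same lengths. For meiosis and spores centring gave 3 higher and 13 lower, and quantile normalization 6 and 12. Meiosis and spores had 3 to 10 higher and 7 to 9 lower with 1 array left out, a move of over 1.5 times without VIN13 day 5 replicates 1 and 3. In VIN13 16 rose and 2 fell, and in BM45 25 rose and 8 fell, with a median change of 0.30 in VIN13 and 0.49 in BM45. SMK1, a kinase of spore wall formation, and SPS2, a spore wall protein, lay barely above the bound in BM45 at day 14 and below it in the other groups, with rises in BM45 of at least 1.04-fold and 1.05-fold over the bound. The summed intensity of 9 spore markers had a median of 10245 in VIN13 at day 14, 8614 in VIN13 at day 5, 9559 in BM45 at day 14 and 10600 in BM45 at day 5, and SPS100 and DIT1 were above the bound in all 4 groups.

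The part of spore or haploid cells in these values was not tested. The summed intensity of MFA1, MFA2, STE2 and BAR1 had a median of 1887 in VIN13 at day 14, 767 in VIN13 at day 5, 3325 in BM45 at day 14 and 1028 in BM45 at day 5, and for 4 alpha cell markers it was 689, 567, 695 and 625 in the same groups. MFA2, the gene of a-factor pheromone, was above the bound in BM45 at day 14 alone, a rise of at least 1.27-fold there. In the mating list as a whole 3 of 28 were higher and 5 lower, 28.6% against 34.2% of all genes. Mating genes were called higher in 10.7% and lower in 17.9%, against 23.9% and 10.6% of all genes with the same lengths. For mating centring gave 2 higher and 6 lower, and quantile normalization 1 and 6. Mating had 2 to 5 higher and 1 to 4 lower with 1 array left out, a move of over 1.5 times without VIN13 day 14 replicates 1, 3 and 4, VIN13 day 5 replicates 1, 2 and 3, BM45 day 14 replicates 1 and 3 or BM45 day 5 replicates 2 and 3, and 7 higher and 3 lower without both VIN13 arrays numbered 3, and 5 higher and 6 lower with a pseudocount of 64. KAR4, a transcription factor of karyogamy and meiosis, read 411, 423 and 357 in VIN13 at day 14 and 408, 424 and 482 in VIN13 at day 5, and 176, 166 and 170.3 in BM45 at day 14 and 501, 444 and 459 in BM45 at day 5. Its interaction was 1.24 ± 0.13 (adjusted p = 4.18e-05), with the fall called in BM45 alone.

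Aroma-forming enzymes took opposite directions within 1 family. EEB1 and EHT1 are the acyltransferases that make the ethyl esters of medium-chain fatty acids. EEB1 read 4078, 3943 and 3811 in VIN13 at day 14 and 4732, 5292 and 4524 in VIN13 at day 5, and 1684, 1636 and 1550 in BM45 at day 14 and 5935, 5654 and 6090 in BM45 at day 5, and EHT1 read 1681, 1640 and 1453 in VIN13 at day 14 and 2087, 2158 and 2068 in VIN13 at day 5, and 2852, 2714 and 2629 in BM45 at day 14 and 1528, 1436 and 1692 in BM45 at day 5. EEB1 fell by 0.29 in VIN13 and fell by 1.85 in BM45, with an interaction of 1.56 ± 0.13 (adjusted p = 7.28e-06). EHT1 fell by 0.40 in VIN13 and rose by 0.81 in BM45, with an interaction of -1.21 ± 0.14 (adjusted p = 8.87e-05). At day 14 VIN13 was higher than BM45 for EEB1 and lower for EHT1 on every array.

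Pyruvate decarboxylase makes the acetaldehyde that becomes ethanol, and the changes of its minor isoenzymes PDC5 and PDC6 were larger in BM45. PDC5 read 10900, 8802 and 10530 in VIN13 at day 14 and 13280, 13660 and 12560 in VIN13 at day 5, and 2874, 3065 and 3046 in BM45 at day 14 and 8047, 9164 and 8344 in BM45 at day 5. It fell in BM45, the change of -0.39 in VIN13 was not called, and the interaction was 1.11 ± 0.23 (adjusted p = 0.00213). PDC6, an isoenzyme low in sulfur amino acids, fell by 1.90 in VIN13 and fell by 3.41 in BM45, with 2844, 1366 and 2084 in VIN13 and 449.7, 459 and 481 in BM45 at day 14. Its interaction of 1.52 ± 0.46 (adjusted p = 0.0206) was not called without the VIN13 array numbered 1 of day 5 (1.44, adjusted p = 0.0515) or that of day 14 (1.27, adjusted p = 0.0543). PDC5 and PDC6 resemble each other and are open to cross-hybridisation. In the list of higher alcohol and ester formation 6 of 26 were higher and 5 lower, 42.3% against 34.2% of all genes. Aroma genes were called higher in 23.1% and lower in 19.2%, against 22.6% and 11.2% of all genes with the same lengths. For aroma formation centring gave 6 higher and 8 lower, and quantile normalization 5 and 4. Aroma formation had 5 to 7 higher and 3 to 5 lower with 1 array left out, a move of over 1.5 times without VIN13 day 5 replicate 2, BM45 day 14 replicate 2 or BM45 day 5 replicate 3. AAD6, an aryl-alcohol dehydrogenase, read 0.00135, 0.0054 and 0.00259 at day 14 and 0.00246, 0.00469 and 1.91 at day 5 in VIN13, all far below the background bound, and 45.8, 42.6 and 42.2 at day 14 and 281, 280.2 and 264 at day 5 in BM45. It fell at least 2.49-fold in BM45, and with no VIN13 signal its interaction of 2.23 says nothing of a change in VIN13. The AAD family is open to cross-hybridisation.

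Carbon regulators and C2 genes were mixed. CAT8, the activator of gluconeogenic genes, read 2760, 3675 and 2779 in VIN13 at day 14 and 450.5, 568 and 665 in VIN13 at day 5, and 3019, 3157 and 3041 in BM45 at day 14 and 1258, 1303 and 1137 in BM45 at day 5. The strains overlapped at day 14, and at day 5 VIN13 lay below BM45 on every array, so that the rise of 2.42 in VIN13 exceeded that of 1.31 in BM45. Its interaction was 1.11 ± 0.28 (adjusted p = 0.00773). NDE1, the external mitochondrial NADH dehydrogenase, read 1430, 2393 and 1889 in VIN13 at day 14 and 1110, 1184 and 1440 in VIN13 at day 5, and 1724, 1642 and 1771 in BM45 at day 14 and 484, 448 and 468 in BM45 at day 5, and CIT3, a mitochondrial citrate and methylcitrate synthase, read 244, 308 and 241 in VIN13 at day 14 and 107, 102 and 106 in VIN13 at day 5, and 819.5, 759 and 822 in BM45 at day 14 and 132, 130.4 and 127 in BM45 at day 5. NDE1 had an interaction of -1.26 ± 0.25 (adjusted p = 0.00188) and CIT3 of -1.28 ± 0.15 (adjusted p = 8.87e-05), both with the larger rise in BM45. YAT1, a carnitine acetyltransferase, stood above the bound in BM45 at day 14 only, at 174, 146 and 159.9, a rise of at least 1.5-fold. Of 29 genes of gluconeogenesis, the glyoxylate cycle and C2 metabolism 4 were higher and 4 lower, 27.6% against 34.2% of all genes. Gluconeogenic and C2 genes were called higher in 13.8% and lower in 13.8%, against 27% and 9.5% of all genes with the same lengths. For gluconeogenesis and C2 metabolism centring gave 4 higher and 10 lower, and quantile normalization 4 and 7. Gluconeogenesis and C2 metabolism had 4 to 5 higher and 2 to 5 lower with 1 array left out, a move of over 1.5 times without VIN13 day 14 replicate 4, VIN13 day 5 replicate 2, BM45 day 14 replicates 2 and 3 or BM45 day 5 replicates 1 and 3.

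Glucose signalling genes included both directions. MIG2, a repressor of genes under glucose repression, read 154, 72.9 and 108 in VIN13 at day 14 and 212, 247 and 143 in VIN13 at day 5, and 799, 811 and 741 in BM45 at day 14 and 437, 468 and 446 in BM45 at day 5. It fell by 0.78 in VIN13, although the arrays of the days overlapped, and rose by 0.78 in BM45 without overlap, an interaction of -1.56 ± 0.31 (adjusted p = 0.0018). CYR1, adenylate cyclase, and GPR1, the glucose receptor that acts on it, were higher in ratio in VIN13. CYR1 read 2637, 2044 and 2365 in VIN13 at day 14 and 2566, 2573 and 2509 in VIN13 at day 5, and 1252, 1367 and 1267 in BM45 at day 14 and 3528, 3791 and 3747 in BM45 at day 5, and GPR1 read 2439, 2271 and 2174 in VIN13 at day 14 and 1704, 1986 and 1831 in VIN13 at day 5, and 1497, 1511 and 1413 in BM45 at day 14 and 2786, 3264 and 2668 in BM45 at day 5. Their interactions were 1.37 ± 0.23 (adjusted p = 0.000721) for CYR1 and 1.28 ± 0.23 (adjusted p = 0.000999) for GPR1, with called falls in BM45 and no called change in VIN13. In the list of PKA, TORC1 and quiescence regulators 6 of 33 were higher and 4 lower, 30.3% against 34.2% of all genes. Signalling genes were called higher in 18.2% and lower in 12.1%, against 27.8% and 8.8% of all genes with the same lengths. For these regulators centring gave 5 higher and 5 lower, and quantile normalization 5 and 5. These regulators had 5 to 7 higher and 2 to 4 lower with 1 array left out, a move of over 1.5 times without VIN13 day 14 replicates 3 and 4, VIN13 day 5 replicate 2, BM45 day 14 replicates 1, 2 and 3 or BM45 day 5 replicates 1 and 3. HXK2, hexokinase 2, fell in VIN13 (-0.39) and was not called in BM45 (0.25), and SNF3, a sensor of low glucose, fell in BM45 (-0.42) and was not called in VIN13 (0.37). Among 19 hexose transporters and sensors 2 were higher and 5 lower, 36.8% against 34.2% of all genes. Transporter and sensor genes were called higher in 10.5% and lower in 26.3%, against 27.8% and 10% of all genes with the same lengths. For hexose uptake centring gave 1 higher and 6 lower, and quantile normalization 2 and 6. Hexose uptake had 1 to 3 higher and 3 to 5 lower with 1 array left out, a move of over 1.5 times without VIN13 day 14 replicates 1, 3 and 4, VIN13 day 5 replicates 1 and 2, BM45 day 14 replicates 1, 2 and 3 or BM45 day 5 replicates 1, 2 and 3, and 2 higher and 3 lower without both VIN13 arrays numbered 3, and 2 higher and 3 lower with a pseudocount of 1. HXT8 stood above the bound only in BM45 at day 14, at 282, 289 and 259. Its interaction of -1.81 ± 0.40 (adjusted p = 0.00366) was not called with a pseudocount of 1 (-2.00, adjusted p = 0.159), and the family is open to cross-hybridisation.

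Peroxisomal fatty acid oxidation had 6 of 19 genes higher and 0 lower in VIN13, 31.6% called against 34.2% of all genes, with a median of 0.55. PXA1, a subunit of the transporter that brings long-chain fatty acids into peroxisomes, read 2301, 2952 and 2269 in VIN13 at day 14 and 1233, 1384 and 1719 in VIN13 at day 5, and 1777, 1753 and 1794 in BM45 at day 14 and 3198, 3418 and 2857 in BM45 at day 5. The arrays of the days did not overlap in either strain, and the order of the strains turned. PXA1 rose by 0.79 in VIN13 and fell by 0.82 in BM45, an interaction of 1.61 ± 0.20 (adjusted p = 0.000107). Its partner PXA2 had 0.42 in VIN13, not called, and fell by 0.92 in BM45. FOX2, the multifunctional oxidation enzyme, and ECI1, an enoyl-CoA isomerase, had interactions of 0.84 and 0.92. The list was lower in VIN13 at day 5, with a median of -0.71, and at day 14 its median was -0.08. Peroxisomal genes were called higher in 31.6% and lower in 0%, against 26.3% and 8.9% of all genes with the same lengths. For peroxisomal oxidation centring gave 5 higher and 1 lower, and quantile normalization 5 and 0.

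Of 31 genes of fatty acid and phospholipid synthesis 8 were higher and 3 lower, 35.5% against 34.2% of all genes. Lipid synthesis genes were called higher in 25.8% and lower in 9.7%, against 24.9% and 10.1% of all genes with the same lengths. For lipid synthesis centring gave 6 higher and 6 lower, and quantile normalization 7 and 3. ITR1, the inositol transporter, OPI3, a phospholipid methyltransferase, and DPP1, a diacylglycerol pyrophosphate phosphatase, had interactions of 1.01, 0.88 and 0.96, each with a called fall in BM45. ELO2, a fatty acid elongase, fell in VIN13 (-0.91) and was not called in BM45 (-0.04). TRK1, the high-affinity potassium transporter, read 1981, 2142 and 2074 in VIN13 at day 14 and 1621, 1842 and 1695 in VIN13 at day 5, and 922, 933 and 927 in BM45 at day 14 and 2002, 1927 and 1841 in BM45 at day 5. It rose by 0.26 in VIN13 and fell by 1.04 in BM45.

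Of 62 measured genes of amino acid synthesis 14 had a lower and 7 a higher ratio in VIN13, 33.9% called against 34.2% of all genes, with a median of -0.24, -0.39 relative to all genes. Amino acid synthesis genes were called higher in 11.3% and lower in 22.6%, against 22.5% and 11% of all genes with the same lengths. For amino acid synthesis centring gave 4 higher and 24 lower, and quantile normalization 4 and 20. Amino acid synthesis had 4 to 7 higher and 9 to 16 lower with 1 array left out, a move of over 1.5 times without VIN13 day 5 replicates 1 and 2 or BM45 day 5 replicate 1. In VIN13 36 fell and 3 rose, and in BM45 32 fell and 10 rose. THR1, homoserine kinase, read 298, 130.2 and 180.1 in VIN13 at day 14 and 608, 625 and 454 in VIN13 at day 5, and 413, 402 and 401 in BM45 at day 14 and 367, 359 and 415 in BM45 at day 5. It fell by 1.46 in VIN13, and the BM45 arrays overlapped between days. LYS9, of lysine synthesis, fell in VIN13 (-0.97) and had 0.01 in BM45. HIS4, of histidine synthesis, rose in BM45 (1.28) and was not called in VIN13 (0.33). GDH3, the glutamate dehydrogenase used in stationary phase, rose by 0.53 in VIN13 and 1.73 in BM45.

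The purine and one-carbon list had 4 of 31 higher and 7 lower, 35.5% against 34.2% of all genes. Purine and one-carbon genes were called higher in 12.9% and lower in 22.6%, against 24.8% and 10.2% of all genes with the same lengths. For purines centring gave 0 higher and 11 lower, and quantile normalization 3 and 9. Purines had 1 to 4 higher and 6 to 8 lower with 1 array left out, a move of over 1.5 times without VIN13 day 14 replicates 1 and 4, VIN13 day 5 replicate 1, BM45 day 14 replicates 1 and 2 or BM45 day 5 replicates 1 and 2, and 2 higher and 7 lower without both VIN13 arrays numbered 3. GCV2, a subunit of the glycine decarboxylase, read 1599, 1723 and 1198 in VIN13 at day 14 and 2581, 2595 and 2315 in VIN13 at day 5, and 1020, 1051 and 1022 in BM45 at day 14 and 895, 822 and 739.8 in BM45 at day 5, and fell by 0.74 in VIN13 and rose by 0.33 in BM45. ADE1 and ADE3, enzymes of purine and folate metabolism, rose in BM45 (0.63 and 0.94) and were not called in VIN13 (-0.09 and 0.00). Of the 4 called higher, URA5, URA10 and FCY2 serve pyrimidine synthesis or base uptake and MTD1 one-carbon metabolism, as named after their values were seen.

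Sulfate assimilation and methionine genes had 9 of 29 higher and 0 lower, 31% against 34.2% of all genes, with a median of 0.21. Sulfur genes were called higher in 31% and lower in 0%, against 24.3% and 10.4% of all genes with the same lengths. For sulfur centring gave 6 higher and 3 lower, and quantile normalization 8 and 0. Sulfur had 7 to 9 higher and 0 to 1 lower with 1 array left out, a move of over 1.5 times without VIN13 day 14 replicate 1 or VIN13 day 5 replicate 3, and 9 higher and 1 lower without both VIN13 arrays numbered 3. SUL2, a sulfate permease, read 1892, 1270 and 1974 in VIN13 at day 14 and 1641, 1456 and 1067 in VIN13 at day 5, and 3072, 2929 and 3420 in BM45 at day 14 and 5832, 6518 and 5905 in BM45 at day 5. It fell by 0.95 in BM45, and the VIN13 arrays overlapped between the days and lay below those of BM45 throughout. CYS4, cystathionine beta-synthase, read 2950, 2207 and 2868 in VIN13 at day 14 and 3263, 3229 and 2563 in VIN13 at day 5, and 2153, 2070 and 2233 in BM45 at day 14 and 5496, 5395 and 5672 in BM45 at day 5. MET5, a sulfite reductase subunit, and MET6, methionine synthase, had interactions of 0.97 and 0.95. The list was lower in VIN13 at day 5, by a median of -0.74, and -0.47 at day 14. Thiamine and vitamin B6 genes had 6 of 19 higher and 1 lower, 36.8% against 34.2% of all genes. Vitamin genes were called higher in 31.6% and lower in 5.3%, against 21.6% and 11.2% of all genes with the same lengths. For these vitamins centring gave 1 higher and 1 lower, and quantile normalization 4 and 1. These vitamins had 2 to 7 higher and 1 lower with 1 array left out, a move of over 1.5 times without VIN13 day 14 replicate 1, VIN13 day 5 replicate 1, BM45 day 14 replicate 2 or BM45 day 5 replicate 1. The near-identical THI genes are open to cross-hybridisation. SNZ1, a vitamin B6 gene known from stationary phase, was the 1 lower, with a called rise in BM45 (0.90) and -0.07 in VIN13.

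Of 22 genes of trehalose and glycogen metabolism 6 were higher and 0 lower, 27.3% against 34.2% of all genes. Reserve carbohydrate genes were called higher in 27.3% and lower in 0%, against 32.8% and 7.2% of all genes with the same lengths. For reserve carbohydrates centring gave 5 higher and 1 lower, and quantile normalization 6 and 1. GPH1, glycogen phosphorylase, read 7170, 7662 and 6504 in VIN13 at day 14 and 8909, 8909 and 9240 in VIN13 at day 5, and 2449, 2567 and 2173 in BM45 at day 14 and 6536, 7788 and 6994 in BM45 at day 5, an interaction of 1.22 ± 0.21 (adjusted p = 0.000791). TPS3, a subunit of trehalose synthase, fell by 0.71 in VIN13 and fell by 1.68 in BM45. In the general stress list 7 of 47 were higher and 2 lower, 19.1%, below the 34.2% of all genes. General stress genes were called higher in 14.9% and lower in 4.3%, against 21.1% and 11.4% of all genes with the same lengths. For general stress centring gave 6 higher and 6 lower, and quantile normalization 6 and 4. General stress had 5 to 9 higher and 1 to 3 lower with 1 array left out, a move of over 1.5 times without VIN13 day 14 replicate 3, VIN13 day 5 replicates 1 and 2, BM45 day 14 replicates 1, 2 and 3 or BM45 day 5 replicates 1 and 3. CTT1, cytosolic catalase, fell by 0.63 in VIN13 and fell by 1.46 in BM45, and GAD1, glutamate decarboxylase, fell by 1.37 in VIN13 and fell by 2.31 in BM45. In the oxidative stress list 9 of 33 were higher and 1 lower, 30.3% against 34.2% of all genes. Oxidative stress genes were called higher in 27.3% and lower in 3%, against 19.4% and 12.1% of all genes with the same lengths. For oxidative stress centring gave 7 higher and 5 lower, and quantile normalization 9 and 2. Oxidative stress had 9 to 10 higher and 0 to 5 lower with 1 array left out, a move of over 1.5 times without VIN13 day 14 replicates 1 and 3, VIN13 day 5 replicates 1, 2 and 3, BM45 day 14 replicate 2 or BM45 day 5 replicates 1 and 2, and 9 higher and 2 lower without both VIN13 arrays numbered 3. MXR1, a methionine sulfoxide reductase, had an interaction of 1.05. SRX1, the sulfiredoxin that reactivates peroxiredoxins and no member of that list, read 208, 52.4 and 134.7 in VIN13 at day 14 and 201, 218 and 158 in VIN13 at day 5, and 323, 338 and 290.4 in BM45 at day 14 and 87.1, 84.9 and 99.8 in BM45 at day 5. The VIN13 arrays of day 14 spread widely, and the rise in BM45 was at least 2.85-fold, with an interaction of -2.29 ± 0.41 (adjusted p = 0.000985).

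Of 127 cytosolic ribosomal protein genes 104 fell in VIN13 and 107 in BM45, with a median change of -0.61 in VIN13 and -0.75 in BM45. The interaction was called for 14 higher and 5 lower, 15%, a share below that of all genes. Ribosomal protein genes were called higher in 11% and lower in 3.9%, against 17.3% and 12.1% of all genes with the same lengths. For ribosomal proteins centring gave 6 higher and 12 lower, and quantile normalization 17 and 5. Ribosomal proteins had 9 to 15 higher and 4 to 6 lower with 1 array left out, a move of over 1.5 times without BM45 day 5 replicate 3. Many are near-identical pairs open to cross-hybridisation. Unlike most of these genes, RPL4B rose in BM45 (1.39). It read 1659, 1917 and 1772 in VIN13 at day 14 and 1875, 1761 and 1612 in VIN13 at day 5, and 498, 659 and 501 in BM45 at day 14 and 188, 174 and 242 in BM45 at day 5, and its interaction was -1.36 ± 0.32 (adjusted p = 0.00474). In ribosome biogenesis 12 of 91 were higher and 2 lower, 15.4%, with 43 that fell in VIN13 and 55 in BM45. Ribosome biogenesis genes were called higher in 13.2% and lower in 2.2%, against 26.6% and 9.4% of all genes with the same lengths. For ribosome biogenesis centring gave 8 higher and 8 lower, and quantile normalization 3 and 6. Ribosome biogenesis had 10 to 14 higher and 2 to 4 lower with 1 array left out, a move of over 1.5 times without VIN13 day 14 replicate 1. RRP5, an rRNA processing factor, fell by 0.73 in VIN13 and fell by 1.54 in BM45, and IMP4, of the small subunit processome, rose by 0.53 in VIN13 and 1.39 in BM45. Translation factors and tRNA synthetases had 9 of 53 higher and 6 lower, 28.3% against 34.2% of all genes. Translation genes were called higher in 17% and lower in 11.3%, against 27% and 9.2% of all genes with the same lengths. For translation centring gave 6 higher and 8 lower, and quantile normalization 5 and 7. Translation had 7 to 12 higher and 2 to 5 lower with 1 array left out, a move of over 1.5 times without VIN13 day 14 replicate 4, VIN13 day 5 replicates 1 and 2, BM45 day 14 replicates 1 and 3 or BM45 day 5 replicate 2, and 10 higher and 3 lower without both VIN13 arrays numbered 3.

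Mitochondrial ribosomal proteins had 14 of 69 higher and 5 lower, 27.5% against 34.2% of all genes. Mitochondrial ribosomal genes were called higher in 20.3% and lower in 7.2%, against 17.5% and 12.3% of all genes with the same lengths. For mitochondrial ribosomes centring gave 7 higher and 10 lower, and quantile normalization 11 and 6. Mitochondrial ribosomes had 8 to 15 higher and 3 to 7 lower with 1 array left out, a move of over 1.5 times without VIN13 day 14 replicates 3 and 4, VIN13 day 5 replicates 1 and 2, BM45 day 14 replicates 1, 2 and 3 or BM45 day 5 replicates 1 and 2. MRP20, a large subunit protein, read 1055, 862 and 819.7 in VIN13 at day 14 and 1012, 979.7 and 736 in VIN13 at day 5, and 1479, 1439 and 1552 in BM45 at day 14 and 676, 516 and 679 in BM45 at day 5, with a rise called in BM45 and overlapping days in VIN13. MRPL32 had 0.01 in VIN13, not called, and fell by 0.94 in BM45. TOM70, a receptor of mitochondrial protein import, fell in BM45 (-1.26) and had -0.19 in VIN13. In the proteasome list 5 of 38 were higher and 3 lower, 21.1% against 34.2% of all genes. Proteasome genes were called higher in 13.2% and lower in 7.9%, against 20.4% and 11.1% of all genes with the same lengths. For the proteasome centring gave 2 higher and 16 lower, and quantile normalization 5 and 6. The proteasome had 4 to 6 higher and 2 to 7 lower with 1 array left out, a move of over 1.5 times without VIN13 day 14 replicate 1. ECM29, a proteasome-associated scaffold, fell in BM45 (-0.89) and had -0.05 in VIN13.

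Vacuolar proteolysis and autophagy had 7 of 35 genes higher and 0 lower, 20% against 34.2% of all genes. Vacuolar genes were called higher in 20% and lower in 0%, against 24.5% and 10.5% of all genes with the same lengths. For the vacuole centring gave 6 higher and 0 lower, and quantile normalization 8 and 0. APE3, a vacuolar aminopeptidase, fell by 0.53 in VIN13 and fell by 1.46 in BM45, and ATG17, an autophagy scaffold, had 0.11 in VIN13, not called, and fell by 0.81 in BM45. PHO87, a low-affinity phosphate transporter, had an interaction of 1.01. Of 19 glycerol and osmotic genes 4 were higher and 3 lower, 36.8% against 34.2% of all genes. Glycerol and osmotic genes were called higher in 21.1% and lower in 15.8%, against 25.8% and 9.8% of all genes with the same lengths. For glycerol centring gave 4 higher and 4 lower, and quantile normalization 3 and 5. GPP2, a glycerol phosphatase, fell in VIN13 (-1.01) and had -0.09 in BM45. The other 12 lists, among them glycolysis, the respiratory chain, seripauperins, cell wall genes and the responses to iron, zinc and phosphate, had shares called of 7.7% to 29% against 34.2% of all genes, and no direction is read from their few calls.

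**Figure D5:**
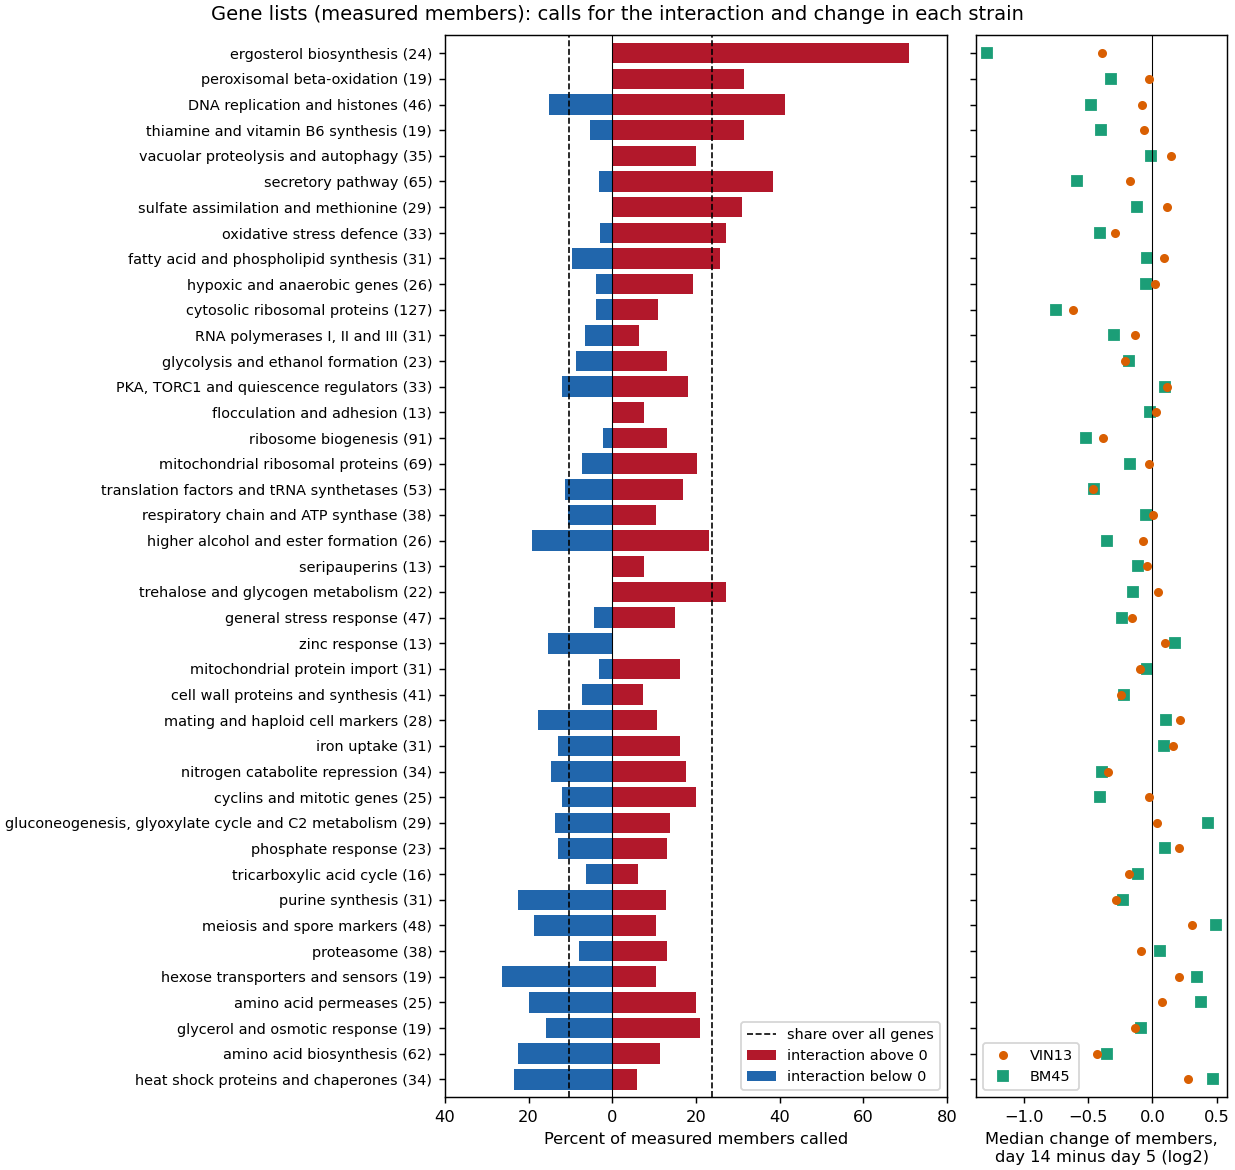
Left, bars give the percent of measured members (number in brackets) of 41 gene lists with a called interaction above 0, red and to the right, and below 0, blue and to the left, with dashed lines at the 23.8% and 10.3% of all genes. Right, the median day 14 minus day 5 change of the members on the log2 scale is given for VIN13 as orange circles and for BM45 as green squares. Ergosterol biosynthesis stands out at 70.8%, and chaperones have the lowest median interaction.

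Genes called in opposite directions, or called in VIN13 alone, are the smaller classes. MSH1, a mitochondrial DNA mismatch repair protein, read 339, 334 and 355 in VIN13 at day 14 and 211, 288 and 291 in VIN13 at day 5, and 122, 145 and 117 in BM45 at day 14 and 372, 397 and 301 in BM45 at day 5, an interaction of 1.74 ± 0.18 (adjusted p = 3.58e-05), with a rise of 0.37 in VIN13 and a fall of 1.37 in BM45. MON1, of vacuole fusion, and LCD1, of the DNA damage checkpoint, went the same way, with 0.46 and 0.32 in VIN13 and -0.98 and -0.95 in BM45. YHI9, of unknown function, read 335, 323 and 267 in VIN13 at day 14 and 883, 1006 and 1093 in VIN13 at day 5, and 266, 249 and 259 in BM45 at day 14 and 208, 175 and 189.5 in BM45 at day 5. It was highest in VIN13 at day 5 on every array, fell by 1.64 in VIN13 and rose by 0.41 in BM45. NEO1, a phospholipid flippase, had a called rise of 0.62 in VIN13, and its change of -0.39 in BM45 was not called. SKP1, a subunit of ubiquitin ligases and of the kinetochore, had a called fall in VIN13 (-0.94) and 0.20, not called, in BM45.

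Among the lowest interactions, several came from strong rises in BM45. LGE1, of histone H2B ubiquitination, read 762, 681 and 667 in VIN13 at day 14 and 521, 536 and 504 in VIN13 at day 5, and 2219, 2098 and 2173 in BM45 at day 14 and 497, 464 and 508 in BM45 at day 5. The strains overlapped at day 5, and at day 14 every VIN13 array lay below every BM45 array, with a difference of -1.60. The interaction was -1.69 ± 0.12 (adjusted p = 2.64e-06). PSR1, a plasma membrane phosphatase of the sodium stress response, was above the bound in BM45 at day 14 alone, a rise of at least 2.93-fold there. YDR222W, of unknown function, read 277, 321 and 316 in VIN13 at day 14 and 237, 262 and 250.3 in VIN13 at day 5, and 2820, 2676 and 2477 in BM45 at day 14 and 544, 563 and 477 in BM45 at day 5, and was lower in VIN13 on every array of both days. Its rise of 2.30 was called in BM45, and the change of 0.27 in VIN13 was not. MMM1, which joins the endoplasmic reticulum to mitochondria, was among the highest, with 0.27 in VIN13, not called, and a fall of 1.35 in BM45.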

How the data were processed

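RNA of wine fermentations was hybridised to 17 Affymetrix yeast arrays with probe sets for S. cerevisiae and S. pombe. The deposited values are linear intensities, 1 per probe set, which the authors made with Affymetrix Expression Console, per the submitters' processing notes. For its version, the summarisation algorithm and any background correction, a statement was not given in the sources used here, and no background was subtracted or scaling added here. Intensities were taken as log2(intensity + 16). Genes were named from the platform's annotation, with 12 symbols updated. For 47 genes several probe sets competed, and the brightest on average was kept. Their mean was tried as well. One linear model with a mean for each strain and day was fitted to all 17 arrays (limma 3.58.1, R 4.3.3, eBayes, residual df 11, prior df 3.81). Calls had a Benjamini-Hochberg adjusted p under 0.05 over 5449 genes. All adjusted p-values are from this limma fit unless another setting is named. Tables and plots used Python 3.11.15, pandas 2.3.3, numpy 2.4.6 and matplotlib 3.10.9. The fit was tested on simulated data.

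The background bound, 6.87 on the log2 scale, is the mean over arrays of the value that 95% of probe sets for S. pombe stayed under. Where a group mean lay below it, a fold is a lower bound against it. Among called genes whose brightest group lay above the bound, the text could name the 15 highest and the 15 lowest, up to 5 of each class of changes, and up to 4 called members of each of 41 gene lists. The members, the lists and the rule were chosen with earlier results of these data known. Probes were designed on a laboratory strain, so a sequence difference between the strains can shift a level, and it drops out of a change within a strain only where signal is proportional to RNA. What arrays with the same replicate number share is not known from the labels, and the main fit did not pair them. The settings tried were the pseudocount, the scaling, dim genes, the arrays fitted, array weights, a replicate block, the ACT1 ratio and each array left out.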

Additional observations from a re-analysis of the deposited data

Results flagged for a closer look

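The change from day 5 to day 14 differed between the strains, by the test of the difference itself, for 1861 genes. In the class that rose in VIN13 and fell in BM45, the largest interactions were 1.74 for MSH1, 1.61 for PXA1, 1.44 for MON1, 1.30 for TRK1 and 1.27 for LCD1. In the class that fell in VIN13 and rose in BM45, they were -2.05 for YHI9, -1.89 for ALP1, -1.83 for DUR3, -1.61 for YCH1 and -1.56 for MIG2. All BM45 arrays of ALP1 lay below the background bound, so its rise there and the size of its interaction rest on signal not above background. Among 317 probe sets above the background bound that the annotation used here does not name, the same test, fitted to them alone, called 67. That is a smaller share than the 34.2% of all genes tested, with 45 higher and 22 lower in VIN13.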

How the results depend on the processing

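The 1861 calls, 1298 higher and 563 lower in VIN13, kept within 1.5 times under both pseudocounts, quantile normalization, the mean over probe sets, leaving out dim genes, trended robust eBayes, the ACT1 covariate, leaving out both VIN13 arrays numbered 3 and each array left out. Leaving out 1 array gave 1404 to 1989 calls, 961 to 1438 higher and 409 to 617 lower. Centring gave 855 higher and 1018 lower. With only the 12 arrays, and so without the day 2 arrays in the spread estimate, there were 2644 calls, 1776 higher and 868 lower. Array weights, whose estimation stopped before it converged, gave 3498 calls, 2176 higher and 1322 lower. At an adjusted p under 0.01 there were 1031, 758 higher and 273 lower, and at least 2-fold 427, 265 higher and 162 lower. Of settings chosen after seeing the data, the 12 arrays without both VIN13 arrays numbered 3 gave 3290, 2234 higher and 1056 lower, and with the ACT1 covariate 3147, 2070 higher and 1077 lower. The cause of these moves was not tested. A replicate block on the 12 arrays gave 2399 calls, 1692 higher and 707 lower. As a hint from the data, 4 of 5 day 5 arrays with a like-numbered partner correlated best with it, and BM45 replicate 3 did not (r = -0.04 with its own number). Of 188 genes open to naming 138 kept their call under every alternative, 12 lost it only at an adjusted p under 0.01, 38 under another one, and 0 turned sign. The 188 were picked from called genes by the size of the interaction in these same arrays, so their calls do not stand for all calls. Of the 1861 calls, 76.2% were kept with their sign under centring and 73.3% after quantile normalization. Signal near background limits 189 called genes whose dimmest group lay below the bound.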

Other observations

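By chromosome, the share of genes called ran between 29.9% on chromosome XV and 38.9% on chromosome I, and the median interaction between -0.03 on chromosome I and 0.22 on chromosome XI. The strain difference was called for 1373 genes at day 5, 539 higher and 834 lower in VIN13, and for 2915 at day 14, 1767 higher and 1148 lower.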
